A study of Mus musculus with 24 samples.

Results

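The 10 genes described here belong to the glucocorticoid axis of the mouse lung: the receptor Nr3c1, the hormone-activating enzyme Hsd11b1 and 8 genes that glucocorticoids are known to induce, Fkbp5, Tsc22d3, Zbtb16, Klf9, Sgk1, Dusp1, Errfi1 and Cdkn1a. They were listed by gene symbol, but earlier results of these data were known, so the choice may not be independent of the values. All 10 were present among the 26253 genes in the table and among the 16153 that passed the filter on low counts. RNA sequencing was done on lung in 4 groups of 6 libraries. Mice ate a control diet and breathed filtered air (control-diet air) or ozone (control-diet ozone), or ate food enriched in DHA (docosahexaenoic acid), an omega-3 fatty acid of fish oil, and breathed filtered air (DHA-diet air) or ozone (DHA-diet ozone). Ozone is a reactive air pollutant that damages airway epithelium. Strain, sex, age, ozone level and the times of exposure and collection were not given in the sources used here. On the mm39 assembly, in the coordinates of the deposited table, Fkbp5 lies on chromosome 17 from 28617727 to 28705124, Hsd11b1 on chromosome 1 from 192903949 to 192946354 and Zbtb16 on chromosome 9 from 48563097 to 48747526. Sgk1 lies on chromosome 10 from 21758083 to 21875802, Errfi1 on chromosome 4 from 150938253 to 150953347 and Cdkn1a on chromosome 17 from 29309953 to 29319697. No group is labelled as given a steroid and no hormone level was used, so the values are transcript levels of these genes and not a test of steroid action.

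Glucocorticoids such as corticosterone, the main one in mice, enter cells and bind the receptor Nr3c1, which chaperones of the Hsp90 family hold ready. The bound receptor enters the nucleus and sits on response elements in DNA, where it raises genes such as Fkbp5 and represses many inflammatory genes. Fkbp5 protein in turn binds the receptor complex and lowers its affinity for hormone, a short feedback loop. Hsd11b1 regenerates active hormone from its inert keto form inside cells. In the lung these hormones mature the alveoli and limit inflammation, and they are the basis of inhaled steroid treatment.

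Levels are CPM, counts scaled to a common library size with TMM factors, given as mean ± SD over n = 6 libraries per group, and each set of libraries is first described by its lowest, median and highest value. Changes are log2 fold changes ± SE from 1 edgeR model over all 24 libraries, and a gene was called when its p, adjusted over all genes tested by Benjamini and Hochberg's method, was under 0.05. CPM is not scaled for gene length, so levels are compared between groups and not between genes. Library totals ran from 18053493 to 26225630 counts. Since no label says that each library is a different mouse, the p-values cover only library-to-library spread, which may be technical. In whole tissue, fewer cells of a type and less RNA per cell cannot be told apart.

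All 5 lung markers (Sftpc, Sftpb, Scgb1a1, Ager and Pecam1) were detected in every group, with summed levels of 85284 to 158300 CPM. A few libraries stood apart on other markers. The lowest lung marker sum was in DHA-diet ozone library 1. The sum of 9 neutrophil markers was 277 CPM in DHA-diet ozone library 1 and 363 in library 2, against a group median of 96.7. It was 203 CPM in control-diet air library 5, against a group median of 71.2, and 171 in control-diet ozone library 1, against 78.97. The sum of 8 heart muscle markers was 2726 and 2772 CPM in control-diet air libraries 1 and 2, against a group median of 1932. Several results below are also given without control-diet air libraries 1 to 3 or without DHA-diet ozone libraries 1 and 2. Control-diet air library 3, at 1943 CPM of heart muscle markers, was near its group median. Control-diet air library 5 and control-diet ozone library 1 were left out only in the fits that left out 1 library at a time.

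The 250 bases before the start sites of the genes whose windows held a searched motif, and of Fkbp5 itself, are shown because the receptor acts through such sequences. They are RefSeq sequences of build GRCm38.p6, which differs from the mm39 assembly of the counts. Windows existed for 8 of the 10 genes, not for Zbtb16 and Nr3c1. Capitals mark the motifs that were searched on both strands: the response element core (GNACA, any 3 bases, then TGTNC, where N is any base), its full palindrome (AGAACA, any 3 bases, then TGTTCT), the single half-site AGAACA, the cyclic AMP element TGACGTCA and the E-box CACGTG.
Fkbp5, chr17:28486150-28486399, minus strand: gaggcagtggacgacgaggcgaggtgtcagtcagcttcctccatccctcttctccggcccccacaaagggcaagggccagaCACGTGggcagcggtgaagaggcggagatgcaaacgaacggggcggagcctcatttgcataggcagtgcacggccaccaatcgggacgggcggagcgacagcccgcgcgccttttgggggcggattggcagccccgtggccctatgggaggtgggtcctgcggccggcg
Sgk1, chr10:21993640-21993889, plus strand: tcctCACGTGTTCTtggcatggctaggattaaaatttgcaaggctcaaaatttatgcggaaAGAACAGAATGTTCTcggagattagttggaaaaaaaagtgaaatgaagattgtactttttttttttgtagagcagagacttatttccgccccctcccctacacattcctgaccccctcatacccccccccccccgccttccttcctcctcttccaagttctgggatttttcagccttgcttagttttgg
Tsc22d3, chrX:140600523-140600772, minus strand: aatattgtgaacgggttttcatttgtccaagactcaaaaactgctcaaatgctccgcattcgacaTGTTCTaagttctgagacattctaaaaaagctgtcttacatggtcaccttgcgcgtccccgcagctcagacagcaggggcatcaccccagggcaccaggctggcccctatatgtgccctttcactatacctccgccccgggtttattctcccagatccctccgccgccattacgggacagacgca
Dusp1, chr17:26508473-26508722, minus strand: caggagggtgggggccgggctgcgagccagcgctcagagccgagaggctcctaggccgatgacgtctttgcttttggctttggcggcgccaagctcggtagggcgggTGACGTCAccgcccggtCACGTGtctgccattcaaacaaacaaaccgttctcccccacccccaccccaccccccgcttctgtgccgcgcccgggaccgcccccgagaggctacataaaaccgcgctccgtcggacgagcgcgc
Errfi1, chr4:150854820-150855069, plus strand: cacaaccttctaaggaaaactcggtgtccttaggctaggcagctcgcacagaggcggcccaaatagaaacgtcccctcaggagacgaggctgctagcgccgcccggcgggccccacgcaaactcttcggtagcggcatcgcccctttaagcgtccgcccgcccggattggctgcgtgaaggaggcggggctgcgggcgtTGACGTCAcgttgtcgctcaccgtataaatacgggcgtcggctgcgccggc
In the Sgk1 window the capitals nearest the 5′ end are an E-box that overlaps AGAACA on the opposite strand. The other capitals are the full palindrome, at positions -189 to -175 from the start site.

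Sgk1 was the only member with the response element core in any of its windows, at the fifth of its 6 start sites. That core occurs in 156 of 32851 mouse promoter windows of 300 bases (0.475%) and the full palindrome in 3 of them (0.009%). AGAACA on its own is common, in 18.974% of windows, and was found at the second of the 3 Tsc22d3 start sites and at 3 of the 6 Sgk1 start sites. The cyclic AMP element, in 1.79% of windows, was present at Dusp1 and Errfi1, and the E-box, in 7.15%, at Fkbp5, Sgk1 and Dusp1. The windows of Klf9, Hsd11b1 and Cdkn1a held none of these letters. A match is a description of the letters and says nothing of whether the receptor was bound, and the elements known to serve Fkbp5 lie within the gene, outside these windows.

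Fkbp5 was higher on the DHA diet. In control-diet air its 6 libraries had 13.1, 21.3 and 23.9 CPM as lowest, median and highest, and in DHA-diet air 27.4, 31.1 and 51.4 CPM. The groups did not overlap, as the lowest DHA-diet library was above the highest control-diet library. The means were 19.98 ± 4.04 and 35.3 ± 9.73 CPM (SD, n = 6), and Fkbp5 rose 1.77-fold (log2 0.82 ± 0.19, edgeR adjusted p = 0.0311, 6 of 6 libraries above the control-diet median). It was the 1 member of 10 called between diets in air, where 1.15% of all genes tested were called, and 1.29% of genes were higher without overlap.

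After ozone the same gene had 19.3, 24.3 and 34.0 CPM on the control diet and 29.6, 37.8 and 69.3 CPM on the DHA diet. The ranges overlapped in part, although all 6 DHA-diet libraries were above the control-diet median. The means were 25.4 ± 5.24 and 41.7 ± 14.2 CPM, a difference of 1.65-fold (log2 0.72 ± 0.18) that did not pass in edgeR (adjusted p = 0.135). In this comparison 0% of the 16153 genes were called by edgeR, 2260 had an unadjusted p under 0.05, DESeq2 called 80 and limma-voom 19. None of the 10 members was called by any of these tools, and 4 of them (Hsd11b1, Fkbp5, Sgk1 and Cdkn1a) had an unadjusted p under 0.05.

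**Figure D1:**
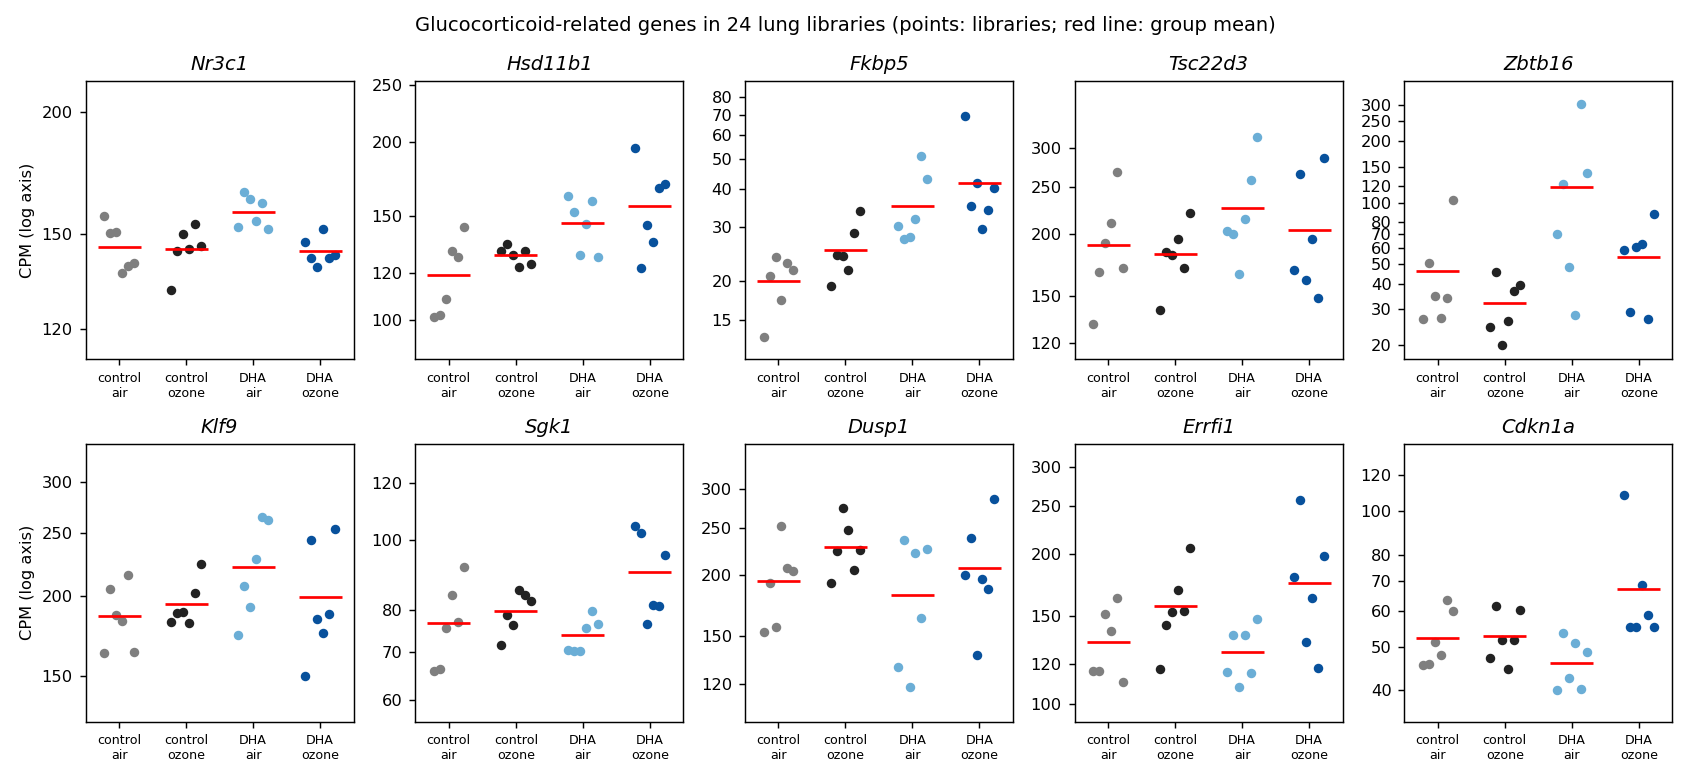
Level of the 10 genes in each of the 24 libraries, in CPM on a log axis that does not start at 0. Points are libraries in the order of their number, and red lines are group means (n = 6). For Fkbp5 the 6 DHA-diet air libraries (27.4 to 51.4 CPM) lie above all control-diet air libraries (13.1 to 23.9 CPM), and for Cdkn1a the DHA-diet ozone libraries lie above all DHA-diet air libraries.

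Averaged over both exposures, a comparison added after the data had been seen and sharing its libraries with those above, Fkbp5 was 1.71-fold higher on the DHA diet (log2 0.77 ± 0.13, edgeR adjusted p = 0.00367). All 12 DHA-diet libraries were above the control-diet median. This averaged comparison called 3 of the 10 members against 7.06% of all genes. The interaction of diet and ozone for Fkbp5 was log2 -0.10 ± 0.26 (95% interval -0.65 to 0.45, edgeR adjusted p = 0.985). That interval leaves room for a diet difference that is larger or smaller after ozone.

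The call of Fkbp5 between diets in air depended on single libraries. Without DHA-diet air library 5, its highest in air, the difference in air was 0.68 on the log2 scale and was no longer called (edgeR adjusted p = 0.101). The call was also lost on leaving out control-diet air library 1, 2 or 4 or DHA-diet air library 6. It held in 19 of 24 fits that each left out 1 library, and the difference in air stayed at 0.68 to 0.88. Averaged over both exposures Fkbp5 was called in 24 of 24 such fits, at 0.67 to 0.82. Leaving out DHA-diet air library 5 and DHA-diet ozone library 1 together gave 0.68 in air (adjusted p = 0.0196) and 0.60 over both exposures (adjusted p = 0.00664). Leaving out control-diet air libraries 1 to 3, of which libraries 1 and 2 had the highest heart muscle marker sums, gave 0.76 in air (adjusted p = 0.17) and 0.74 over both exposures (adjusted p = 0.0523). That fit has fewer libraries in the group, and for lost calls this cannot be told apart from the makeup of the libraries left out.

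Hsd11b1, the enzyme that reactivates the hormone, had a smaller difference in the same direction. Its libraries ran from 101 to 144 CPM with a median of 118 in control-diet air, and from 128 to 162 with a median of 149 in DHA-diet air. After ozone they ran from 123 to 134 with a median of 129.9 on the control diet and from 123 to 195 with a median of 156 on the DHA diet. The groups overlapped in both exposures. Averaged over both exposures Hsd11b1 rose 1.22-fold on the DHA diet (log2 0.29 ± 0.066, edgeR adjusted p = 0.0136, 10 of 12 libraries above the control-diet median), and it was called in 24 of 24 fits that left out 1 library. In air alone the difference was 0.29 ± 0.094 (adjusted p = 0.102) and after ozone 0.28 ± 0.094 (adjusted p = 0.207). Without control-diet air libraries 1 to 3, its 3 lowest in that group at 101, 102 and 109 CPM, the averaged difference was 0.20 (adjusted p = 0.143).

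The receptor Nr3c1 was the steadiest of the 10 genes. Its lowest, median and highest values were 137, 145 and 157 CPM in control-diet air, 131, 145 and 153 in control-diet ozone, 152, 158 and 166 in DHA-diet air, and 139, 142 and 152 in DHA-diet ozone. DHA-diet air had the highest median, and its range overlapped that of each other group in part. On the DHA diet ozone lowered Nr3c1 to 0.911-fold (log2 -0.13 ± 0.042, edgeR adjusted p = 0.0198, 6 of 6 libraries below the air median). For control-diet mice the change was -0.01 ± 0.042 (adjusted p = 0.929), and the interaction, -0.13 ± 0.059, did not pass (adjusted p = 0.801). The call on the DHA diet was lost without DHA-diet air library 2 or 5.

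Zbtb16, a zinc finger repressor that glucocorticoids raise strongly in many cells, spread most between libraries. Its lowest, median and highest values were 26.7, 34.5 and 103 CPM in control-diet air, 20.1, 31.6 and 45.4 in control-diet ozone, 28.1, 97.0 and 304 in DHA-diet air, and 26.7, 59.4 and 88.0 in DHA-diet ozone. Every group reached down to 20.1 to 28.1 CPM. In DHA-diet air, libraries 5, 6 and 2 had 304, 139 and 124 CPM, each above the highest control-diet air library, library 6 at 103 CPM. Zbtb16 fell with ozone on the DHA diet (0.456-fold, log2 -1.13 ± 0.41, edgeR adjusted p = 0.0463, 6 of 6 libraries below the air median). Without DHA-diet air library 5 the change was -0.59 (adjusted p = 0.28). The call held in 11 of 24 fits that left out 1 library, and DESeq2 did not make it (adjusted p = 0.0541).

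Between diets in air Zbtb16 differed 2.58-fold, with log2 1.37 ± 0.42 and an edgeR adjusted p of 0.0885. Averaged over both exposures it rose 2.09-fold (log2 1.06 ± 0.30, edgeR adjusted p = 0.0312, 9 of 12 libraries above the control-diet median). That averaged call was lost in 9 of 24 fits that left out 1 library. Without DHA-diet air library 5 the averaged value was 0.79 (adjusted p = 0.0745), and without control-diet air libraries 1 to 3 it was 0.93 (adjusted p = 0.175).

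Tsc22d3 (GILZ), a leucine zipper protein that carries part of the anti-inflammatory action of the hormones, and Klf9, a zinc finger factor induced by the receptor, were not called in any comparison. Tsc22d3 ran from 131 to 268 CPM with a median of 181 in control-diet air, from 141 to 221 with a median of 183 in control-diet ozone, from 166 to 315 with a median of 209 in DHA-diet air and from 148 to 286 with a median of 182 in DHA-diet ozone. Its difference between diets in air was log2 0.25 ± 0.17 (95% interval -0.10 to 0.60, edgeR adjusted p = 0.466). Klf9 had medians of 184, 188, 217 and 186 CPM in the same order of groups, and its difference between diets in air was 0.25 ± 0.11 (95% interval 0.02 to 0.49, edgeR adjusted p = 0.238). Missing the threshold does not show that the diets had equal levels.

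Sgk1, a kinase that keeps sodium channels at the surface of airway and alveolar cells, rose with ozone on the DHA diet. Its libraries had 70.03, 73.0 and 79.7 CPM in DHA-diet air and 76.4, 88.3 and 105 CPM in DHA-diet ozone. Only the lowest ozone library fell inside the air range, and all 6 were above the air median. The rise was 1.22-fold (log2 0.29 ± 0.079, edgeR adjusted p = 0.00852), and it was called in 24 of 24 fits that left out 1 library. Without both DHA-diet ozone libraries 1 and 2, which had the highest neutrophil marker sums, it was 0.185 and no longer called (edgeR adjusted p = 0.0931). On the control diet the levels were 65.8, 76.2 and 91.8 CPM in air and 71.5, 80.5 and 85.3 CPM in ozone, with a change of 0.06 ± 0.079 (adjusted p = 0.682). The interaction was 0.24 ± 0.11 (edgeR adjusted p = 0.813).

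Cdkn1a, the p21 inhibitor of the cell cycle that p53 and glucocorticoids both raise, had 40.1, 45.7 and 53.7 CPM in DHA-diet air and 55.3, 57.2 and 108 CPM in DHA-diet ozone. The groups did not overlap, as 5.14% of all genes did in this direction. Cdkn1a rose 1.46-fold (log2 0.54 ± 0.14, edgeR adjusted p = 0.00442, 6 of 6 libraries above the air median). On the control diet the libraries had 45.5, 49.6 and 63.5 CPM in air and 44.7, 51.8 and 61.7 CPM in ozone, and the change was 0.02 ± 0.14 (95% interval -0.27 to 0.30, adjusted p = 0.951). The interaction was 0.53 ± 0.19 with an unadjusted p of 0.0104 and an edgeR adjusted p of 0.664. Without DHA-diet ozone library 1, at 108 CPM, the rise on the DHA diet was 0.35 (adjusted p = 0.0107).

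Errfi1, a feedback inhibitor of the EGF receptor, had 108, 127 and 148 CPM in DHA-diet air and 118, 172 and 257 CPM in DHA-diet ozone. The groups overlapped at the low end, and 5 of 6 ozone libraries were above the air median. Errfi1 rose 1.38-fold (log2 0.46 ± 0.14, edgeR adjusted p = 0.0214), a call that was lost without DHA-diet air library 3 or DHA-diet ozone library 2. With the control diet the difference was 0.24 ± 0.14 (adjusted p = 0.267). Averaged over both diets, also added after the data had been seen, it was 0.35 ± 0.10 (edgeR adjusted p = 0.00864, 10 of 12 ozone libraries above the air median). Dusp1, the phosphatase that switches off p38 and JNK kinases, was not called in any comparison. It ran from 153 to 252 CPM in control-diet air, 192 to 274 in control-diet ozone, 118 to 235 in DHA-diet air and 137 to 285 in DHA-diet ozone.

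**Figure D2:**
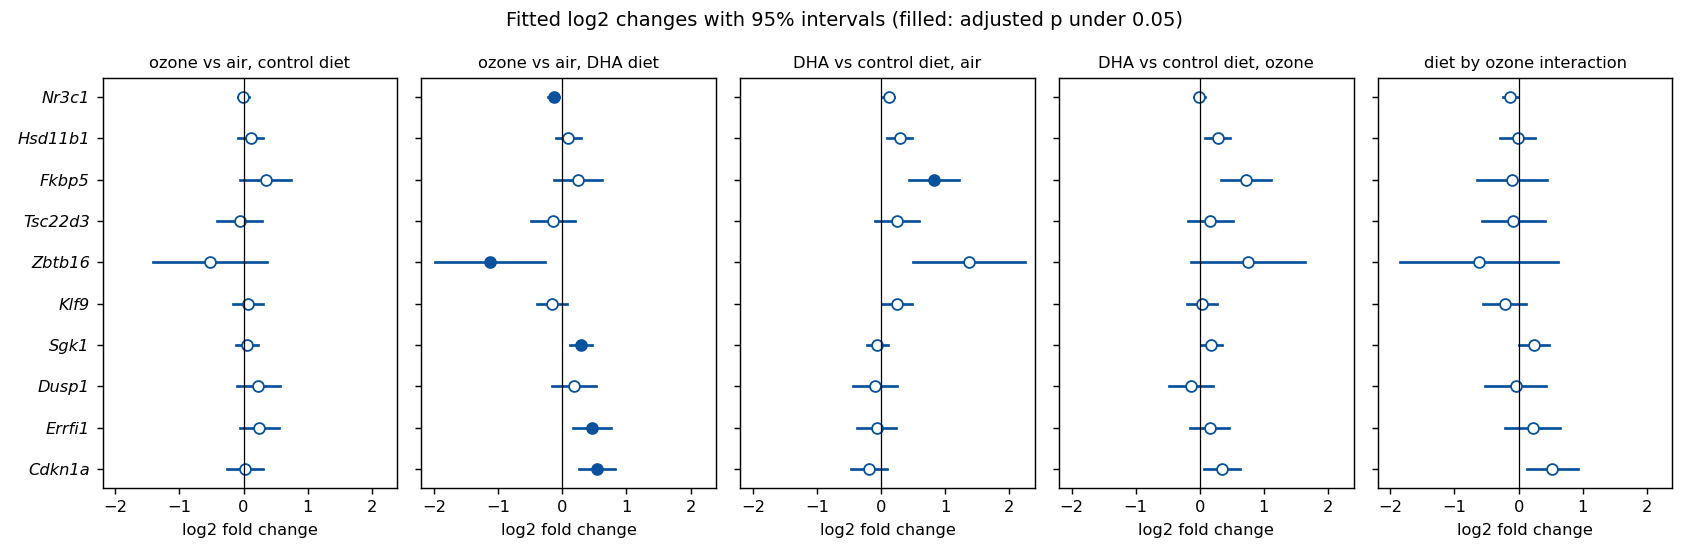
Fitted log2 fold changes of the 10 genes in the 5 comparisons of the design, as points with 95% intervals, on linear axes. Filled points had an edgeR adjusted p under 0.05. Fkbp5 is filled for diet in air, and Nr3c1, Zbtb16, Sgk1, Errfi1 and Cdkn1a are filled for ozone on the DHA diet.

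Counted over the 10 genes, ozone changed 5 on the DHA diet, 3 higher and 2 lower, where 23.7% of all genes were called, 12.7% higher and 11% lower. On the control diet ozone changed 0 of the 10, where 16.8% of all genes were called. There 0 of the 10 had an edgeR unadjusted p under 0.05, and DESeq2 and limma-voom also called 0. The median change of the 10 genes with ozone was log2 0.14 on the DHA diet and 0.06 on the control diet, against -0.01 over all genes on both diets. The interaction was called for 0 of 10 members and for 0% of all genes by edgeR, with 988 genes at an unadjusted p under 0.05, 5 called by DESeq2 and 2 by limma-voom. The difference between the diets in the ozone response was therefore not shown for any of these genes. Of the members, 3 had an unadjusted interaction p under 0.05 (Nr3c1, Sgk1 and Cdkn1a).

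Averaged over both diets ozone changed 4 of the 10, where 35.4% of all genes were called. Zbtb16 was lower, and Sgk1, Errfi1 and Cdkn1a were higher, but of these calls Errfi1 alone held in each of the 3 fits that left out several libraries. Without control-diet air libraries 1 to 3, Sgk1 (edgeR adjusted p = 0.170) and Cdkn1a (0.141) were not called. Without DHA-diet ozone libraries 1 and 2, Zbtb16 (0.0617) and Sgk1 (0.0800) were not called, and without DHA-diet air library 5 and DHA-diet ozone library 1, Zbtb16 (0.102) and Cdkn1a (0.0703) were not. Fkbp5 was 1.23-fold apart in this average (log2 0.29 ± 0.13, edgeR adjusted p = 0.0834). Between diets the median change of the 10 genes was 0.18 in air and 0.17 after ozone, against 0.00 and 0.01 over all genes.

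Neutrophil markers moved with the ozone contrast on the DHA diet, where 7 of 8 tested were called higher, beside 12.7% of all genes. On the control diet 1 of 8 was called higher, where 16.8% of all genes were called in either direction. The interaction of diet and ozone was called for 0 of the 8 and for 0% of all genes. The summed level of the neutrophil markers ran from 48.2 to 85.6 CPM in DHA-diet air and from 78.0 to 363 CPM in DHA-diet ozone. Without DHA-diet ozone libraries 1 and 2, the highest in that sum, Cdkn1a still rose (log2 0.38, edgeR adjusted p = 0.0116) and Nr3c1 still fell (-0.13, adjusted p = 0.0434). In the same fit Sgk1, as given above, was not called, and Errfi1 stood at 0.28 (adjusted p = 0.158) and Zbtb16 at -0.997 (adjusted p = 0.128). What part neutrophils had in the Sgk1 and Errfi1 values was not tested.

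Between libraries of the same group the induced genes spread widely. The SD of log2 CPM around group means was 0.82 for Zbtb16, 0.36 for Fkbp5, 0.33 for Tsc22d3 and Dusp1, 0.28 for Errfi1, 0.25 for Cdkn1a, 0.22 for Klf9 and 0.15 for Sgk1. The median over the 12337 genes that averaged 5 CPM or more was 0.12. Of those genes, 99.9% had a smaller spread than Zbtb16 and 98.2% a smaller one than Fkbp5. Hsd11b1 had 0.18, and Nr3c1 had 0.06, with 5.72% of genes below it. Over all 24 libraries Zbtb16 spanned 15.1-fold, Fkbp5 5.28-fold and Nr3c1 1.26-fold.

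Some libraries were high or low for most of the 8 induced genes at once. DHA-diet air library 6 was above its group mean for 8 of 8, and control-diet air library 5, control-diet ozone library 6 and DHA-diet ozone library 6 for 7 of 8. Control-diet air library 1, control-diet ozone library 1, DHA-diet air libraries 1 and 3 and DHA-diet ozone library 5 were above it for 0 of 8. In neutrophil markers, control-diet air library 5 and control-diet ozone library 1 were the highest of their groups. DHA-diet air library 6 and DHA-diet ozone library 6 were the lowest of theirs, the latter at 78.0 CPM with DHA-diet ozone library 5 at 78.1. Control-diet ozone library 6 had 130 CPM, above its group median of 78.97. High and low libraries for the induced genes thus had no common direction in neutrophil markers. The median deviation over the 8 genes ran from -0.28 in control-diet ozone library 1 to 0.30 in DHA-diet ozone library 6 on the log2 scale. The time of day of collection and handling, which set hormone levels in mice, are not given, and their part was not tested.

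**Figure D3:**
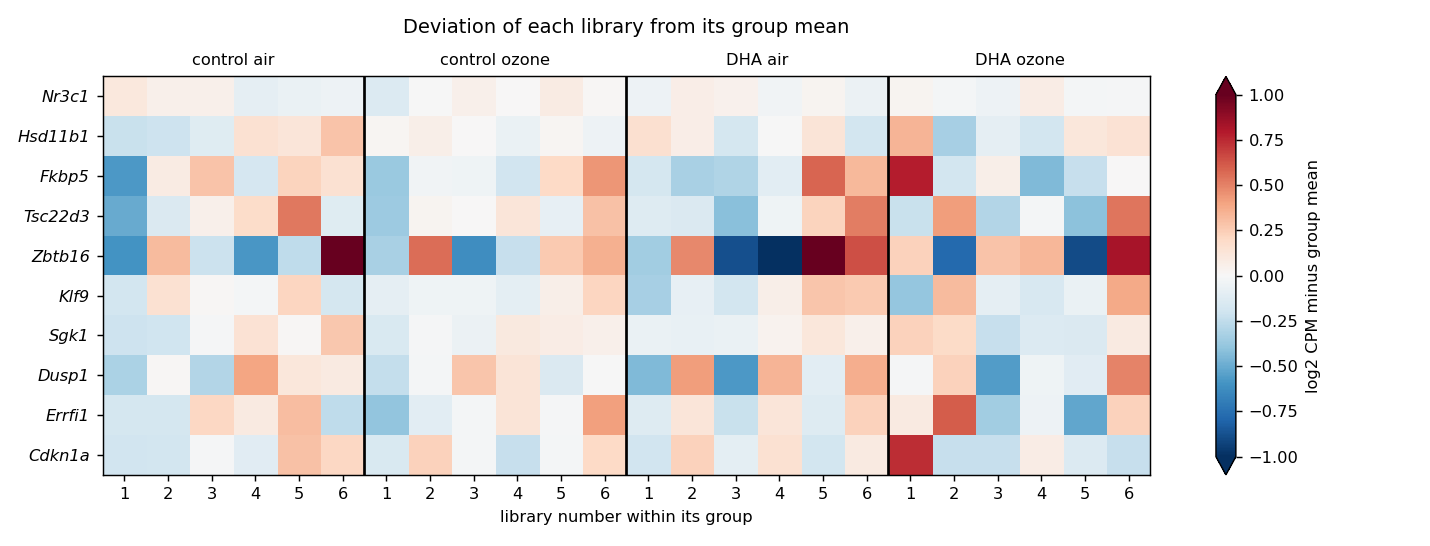
Deviation of each library from its group mean, in log2 CPM, for the 10 genes (rows) in the 24 libraries (columns, by group and library number). Red is above and blue below the group mean, and the colour scale ends at -1 and 1, so the most extreme Zbtb16 values lie beyond it. The Nr3c1 row is nearly white, and whole columns such as DHA-diet air library 6 are red for all 8 induced genes.

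With group means removed, Fkbp5 went with Sgk1 (Pearson r = 0.53, Spearman rho = 0.51, n = 24 libraries), Zbtb16 (r = 0.50, rho = 0.49) and Cdkn1a (r = 0.50, rho = 0.37). The correlations with Tsc22d3 (r = 0.39, rho = 0.45), Hsd11b1 (r = 0.39, rho = 0.27), Errfi1 (r = 0.29, rho = 0.34) and Klf9 (r = 0.27, rho = 0.44) were lower, and those with Dusp1 (r = 0.08, rho = 0.12) and Nr3c1 (r = -0.01, rho = -0.11) were near 0. DHA-diet ozone library 1 and DHA-diet air library 5 lay farthest from the Fkbp5 median. Without them r was 0.61 for Klf9, 0.58 for Tsc22d3, 0.40 for Zbtb16 and Errfi1, 0.37 for Sgk1, 0.36 for Cdkn1a, 0.16 for Dusp1, 0.11 for Hsd11b1 and -0.17 for Nr3c1. DHA-diet ozone library 1 had the highest Fkbp5, Cdkn1a, Hsd11b1 and Sgk1 of its group, at 69.3, 108, 195 and 105 CPM, and the lowest Klf9, at 149.7 CPM. The closest pairs among the members did not include Fkbp5. They were Tsc22d3 with Errfi1 (r = 0.79, rho = 0.79), Tsc22d3 with Klf9 (r = 0.77, rho = 0.75) and Tsc22d3 with Dusp1 (r = 0.63, rho = 0.61). These values are descriptions over libraries that share 1 scaling and differ in cell makeup.

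**Figure D4:**
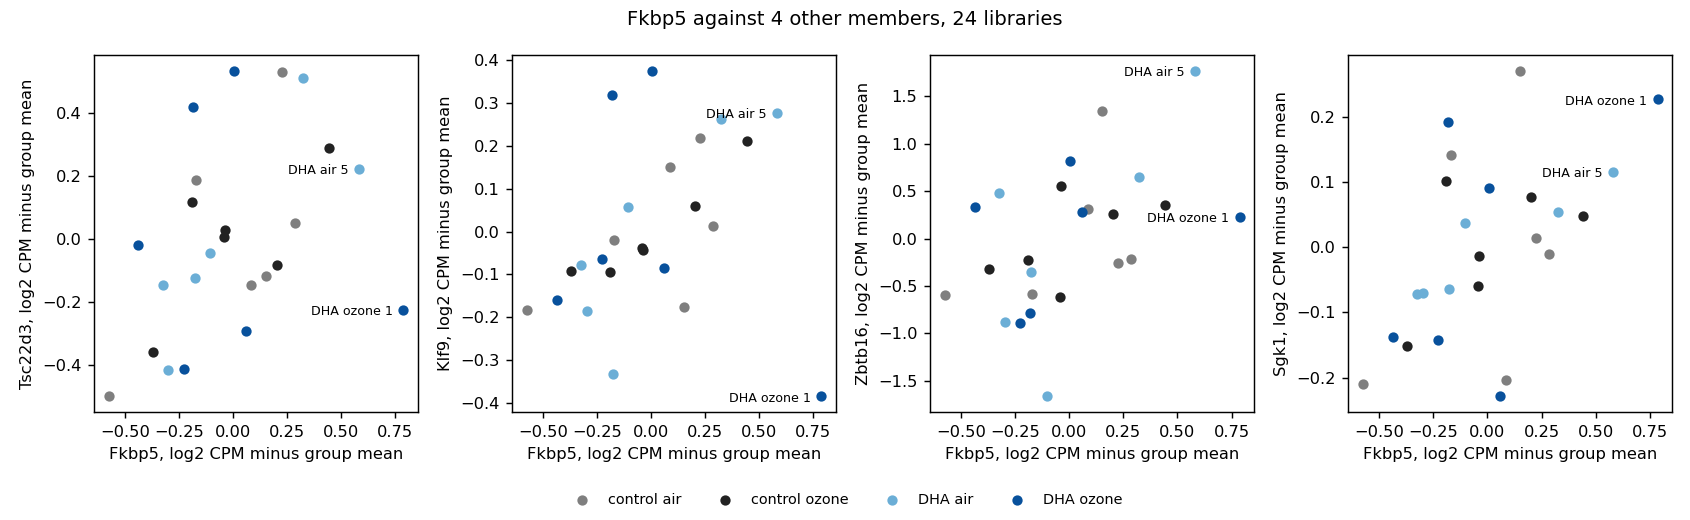
Fkbp5 (horizontal) against Tsc22d3, Klf9, Zbtb16 and Sgk1 (vertical), each as log2 CPM minus the group mean, with 1 point per library (n = 24) coloured by group. DHA-diet ozone library 1 is high for Fkbp5 and Sgk1 and low for Klf9 and Tsc22d3, while DHA-diet air library 5 is high in all 4 panels.

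Among 12327 other genes that averaged 5 CPM or more, the 6 whose levels followed Fkbp5 most closely over the 24 libraries, group means removed, were Jade2 (r = 0.87, rho = 0.89), Map3k6 (r = 0.85, rho = 0.83), Fam107a (r = 0.83, rho = 0.75), Sema7a (r = 0.79, rho = 0.74), Sgms1 (r = 0.78, rho = 0.75) and Ccdc141 (r = 0.78, rho = 0.69). Each had a higher r with Fkbp5 than any other member, but they were picked as the top of 12327 genes and the members were not. That ranking therefore does not show that the members follow Fkbp5 poorly. Without DHA-diet ozone library 1 and DHA-diet air library 5, r was 0.85 for Jade2, 0.71 for Map3k6, 0.69 for Fam107a, 0.62 for Sema7a, 0.66 for Sgms1 and 0.64 for Ccdc141. Fam107a is a known glucocorticoid-induced gene, and Map3k6 encodes a stress kinase of the ASK family.

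The windows of Map3k6 and Fam107a are shown because both held the response element core, at -181 and -118 from the start site, in capitals as above.
Map3k6, chr4:133240568-133240817, plus strand: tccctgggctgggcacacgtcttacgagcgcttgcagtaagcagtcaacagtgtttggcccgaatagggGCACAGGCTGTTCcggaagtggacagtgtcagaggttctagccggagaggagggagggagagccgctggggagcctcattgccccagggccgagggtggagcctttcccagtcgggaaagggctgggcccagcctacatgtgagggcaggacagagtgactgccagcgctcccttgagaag
Fam107a, chr14:8309780-8310029, minus strand: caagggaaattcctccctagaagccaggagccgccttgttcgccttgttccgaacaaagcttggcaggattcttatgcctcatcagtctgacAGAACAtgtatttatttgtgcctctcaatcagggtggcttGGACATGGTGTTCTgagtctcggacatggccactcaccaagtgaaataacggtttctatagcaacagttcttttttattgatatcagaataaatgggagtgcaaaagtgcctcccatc
Windows existed for 5 of the 6 genes, not for Jade2.

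Jade2, a chromatin protein of histone acetylation complexes, had 44.9, 50.5 and 57.2 CPM in control-diet air and 42.5, 50.3 and 56.9 in control-diet ozone. On the DHA diet Jade2 had 58.4, 60.8 and 72.8 CPM in air and 48.7, 53.1 and 59.5 in ozone. The air groups of the 2 diets did not overlap, where 1.29% of all genes were higher without overlap. Jade2 rose 1.26-fold with the diet in air (log2 0.33 ± 0.069, edgeR adjusted p = 0.0171, 6 of 6 libraries above the control-diet median) and fell with ozone on the DHA diet (-0.24 ± 0.069, adjusted p = 0.0131). Of all genes, 1.15% were called in the first comparison and 11% were called lower in the other. On the control diet the ozone change of Jade2 was -0.01 ± 0.069 (edgeR adjusted p = 0.95). Its interaction of diet and ozone was not called (-0.23 ± 0.097, edgeR adjusted p = 0.759). Averaged over both exposures Map3k6 was 1.67-fold, Fam107a 1.53-fold, Sema7a 1.26-fold, Sgms1 1.178-fold and Jade2 1.16-fold higher on the DHA diet, each called by edgeR (adjusted p = 0.00753, 0.0309, 0.0225, 0.0103 and 0.0103). Ccdc141 was 1.06-fold apart (edgeR adjusted p = 0.411), and 7.06% of all genes were called in this averaged comparison. These genes were chosen for following Fkbp5 within groups, so high single libraries that raise Fkbp5 also raise them.

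**Figure D5:**
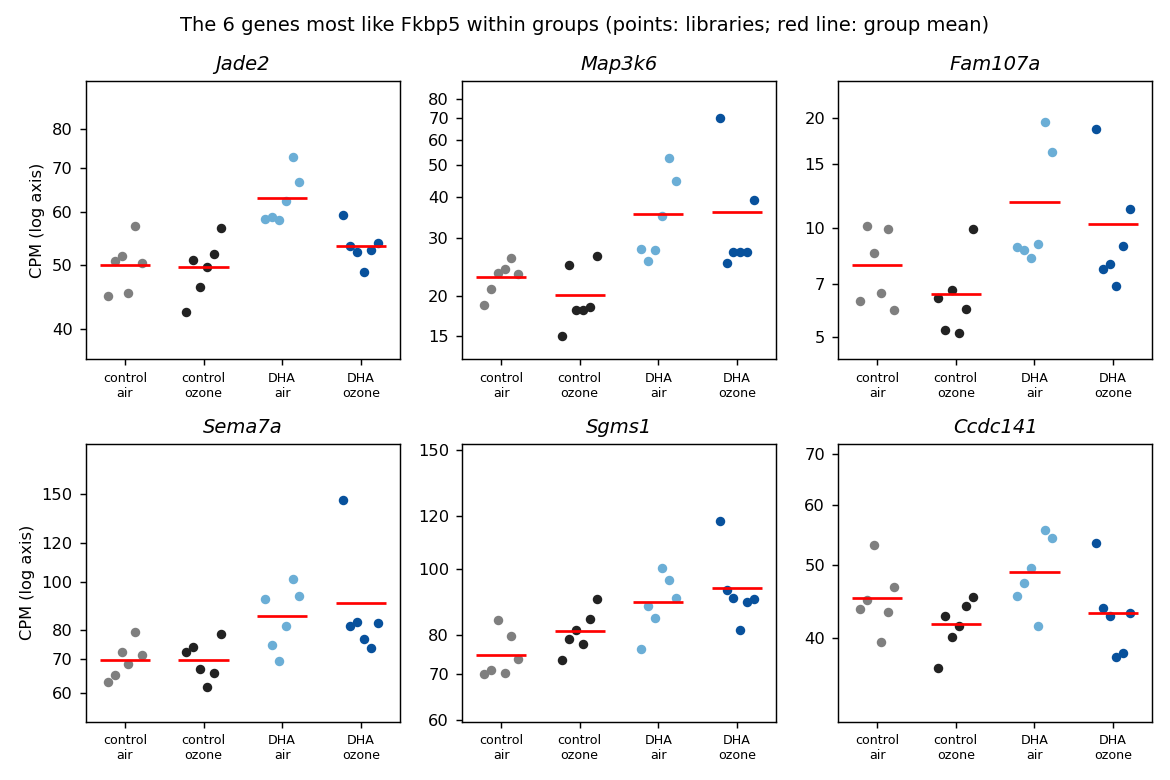
Level of the 6 genes most like Fkbp5 in each of the 24 libraries, in CPM on a log axis that does not start at 0, with group means as red lines. DHA-diet ozone library 1, the first point of the last group, is the highest of its group for all 6 genes.

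Of 24 other genes known to be induced by glucocorticoids, ozone raised 3 and lowered 2 on the control diet, and raised 8 and lowered 0 on the DHA diet. Of all genes, 16.8% were called on the control diet, and 12.7% were called higher and 11% lower on the DHA diet. The median change of the 24 was log2 0.01 and 0.06, against -0.01 over all genes on both diets. On the control diet Lcn2, an iron-binding protein of epithelium and neutrophils, rose 2.47-fold (edgeR adjusted p = 0.000176), Anxa1 rose 1.20-fold and Glul 1.23-fold. Pdk4 and Plin4, genes of fat use and storage, fell to 0.412-fold and 0.546-fold. On the DHA diet Lcn2 rose 2.64-fold (edgeR adjusted p = 4.04e-05), Anxa1 1.23-fold, Cdkn1c 1.23-fold and Zfp36 1.33-fold. Several of these genes also respond to inflammation without steroid. Averaged over both exposures 4 of the 24 were higher on the DHA diet and 0 lower, where 7.06% of all genes were called. They were the metallothioneins Mt2 (1.49-fold) and Mt1 (1.17-fold), Crispld2 (1.13-fold) and Fam107a, with edgeR adjusted p = 0.0198, 0.0344, 0.0236 and 0.0309. Between diets 0 of the 24 were called in air and 0 after ozone, where 1.15% and 0% of all genes were called. The smallest p after ozone belonged to Mt2 (log2 0.65 ± 0.20, edgeR adjusted p = 0.18). In air it belonged to Plin4 (-0.57 ± 0.16, edgeR adjusted p = 0.0691). The adipocyte marker sum ran from 136 to 211 CPM (median 174) in control-diet air and from 78.8 to 197 CPM (median 113) in DHA-diet air. Its median in control-diet ozone was 124 CPM. Of 8 adipocyte markers 0 were called between diets in air, where 1.15% of all genes were called. What part adipocytes had in the Plin4 and Pdk4 values was not tested.

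Of 20 chaperones and cofactors of the receptor, ozone raised 2 on the control diet, Bag1 1.13-fold and Hspa4 1.10-fold. On the DHA diet it raised 4, among them Bag1 1.19-fold and Ppp5c 1.11-fold, and lowered Ncoa3 to 0.900-fold and Med1 to 0.898-fold. These 2 and 6 calls among 20 genes stand beside 16.8% and 23.7% of all genes called on the control and DHA diets. Diet changed 0 of the 20 in either exposure, where 1.15% of all genes were called in air and 0% after ozone. Averaged over both exposures 1 was higher, the chaperone Hspa8 (log2 0.37 ± 0.11, edgeR adjusted p = 0.0474), where 7.06% of all genes were called. Fkbp4, the partner that Fkbp5 competes with for the receptor, had 235 ± 18.8, 263 ± 36.5, 262 ± 39.4 and 298 ± 40.3 CPM in control-diet air, control-diet ozone, DHA-diet air and DHA-diet ozone and was chosen for mention after its values were seen. Of 10 genes of steroid supply and transport 8 were tested. The efflux pump Abcb1a fell to 0.815-fold with ozone on the control diet (edgeR adjusted p = 0.0198), where 16.8% of all genes were called, and to 0.858-fold averaged over both diets (adjusted p = 0.00627). H6pd, the enzyme that supplies the cofactor of Hsd11b1, was called higher in both averaged comparisons, 1.11-fold on the DHA diet (edgeR adjusted p = 0.0321) and 1.10-fold with ozone (adjusted p = 0.0119). Of all genes, 7.06% were called for diet averaged over both exposures and 35.4% for ozone averaged over both diets.

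Of 17 inflammatory genes that glucocorticoids are known to repress 16 were tested. Ozone raised Ccl2 3.78-fold on the control diet and 3.40-fold on the DHA diet (edgeR adjusted p = 5.28e-05 and 2.91e-05), and raised Ccl11 and Icam1 on both diets. In all it raised 3 and lowered 2 (Nos2 and Ccl20) on the control diet, and raised 4 and lowered 1 (Vcam1) on the DHA diet, where 16.8% and 23.7% of all genes were called. Between diets in air 1 was called, Nos2, which was 4.94, 6.27 and 9.30 CPM in control-diet air and 3.08, 3.99 and 5.35 in DHA-diet air. It fell to 0.632-fold (log2 -0.66 ± 0.15, edgeR adjusted p = 0.0314). After ozone diet changed 0 of the 16, and averaged over both exposures Nos2 was the 1 called (0.682-fold, edgeR adjusted p = 0.00703). Of all genes, diet changed 1.15% in air, 0% after ozone and 7.06% averaged over both exposures.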

How the data were processed

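RNA sequencing counts of lung were used for 24 libraries in 4 groups taken from the labels. Per the submitters' processing notes, the authors used Partek, STAR and HTSeq with mm39. Versions, annotation and strand setting were not given in the sources used here. Reads of overlapping or antisense genes therefore cannot be told apart. The authors deposited unnormalized gene counts, whole numbers, with the row of Scgb1a1 rounded by the authors to 3 significant digits. Library totals ran from 18053493 to 26225630 counts, which sets the counting precision.

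Genes were filtered with filterByExpr (minimum count 10, minimum total 15), TMM-scaled and tested by quasi-likelihood in edgeR 4.0.16 (R 4.3.3) with 1 mean per group and 20 residual degrees of freedom. Each SE is the log2 change over the square root of F. CPM uses TMM-scaled library sizes, and log2 CPM a prior count of 2. The 5 comparisons follow the design, and 2 averaged ones were added after the data were seen. Alternatives were RLE scaling, library totals, other filters, a replicate block, DESeq2 1.42.0, limma 3.58.1 voom, the compared groups alone, and leaving out libraries. The main edgeR test was first checked on simulated data, for ozone on the control diet only, and the alternatives were not. Dixon's ratio, taken on log2 CPM, was used to find single libraries far from their group.

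The members and lists were chosen with earlier results of these data known. All members are named. In the other lists, genes with the smallest p were named, up to 4 called or else 2, and likeness to Fkbp5 was ranked by Pearson r. Promoter windows are RefSeq sequences of GRCm38.p6.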

Additional observations from a re-analysis of the deposited data

Results flagged for a closer look

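In the DHA-diet ozone group, Cdkn1a was far higher in library 1 than in the other libraries, at 108 CPM with the next at 68.4. Taken on log2 CPM, the gap was 0.684 of the range of the group, above the limit of 0.625 for 6 libraries. On that scale this was the 1 value found among 40 sets of a gene and a group. Chance gives about 1 in 20 sets, so 1 value among 40 is no more than chance alone would give. The same library had the highest Fkbp5 of all 24 libraries, 69.3 CPM, the lowest lung marker sum, 85284 CPM, and a neutrophil marker sum of 277 CPM. Without it Cdkn1a rose by 0.35 on the log2 scale with ozone on the DHA diet (edgeR adjusted p = 0.0107). What part its makeup had in the high value was not tested.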

How the results depend on the processing

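The calls of the 10 genes changed little with scaling and filters: RLE scaling, no filter and a filter of 1 CPM in 6 libraries changed none of the member calls, and library totals added Nr3c1 for ozone over both diets (log2 -0.10, edgeR adjusted p = 0.0307). Library totals also turned the sign of uncalled values near 0, Cdkn1a for ozone on the control diet (-0.019) and the Hsd11b1 interaction (0.011). The labels state no pairing of libraries by the numbers in the titles. Same-numbered libraries had a mean correlation of -0.0306 over 36 pairs, and 0 of 24 were closest to their own number. These values do not show that the numbers carry no pairing. With the replicate block Zbtb16 was no longer called for ozone on the DHA diet (-0.86, adjusted p = 0.116) or over both diets (-0.65, adjusted p = 0.0682), and diet in air called 85 genes in place of 186.

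By DESeq2 the diet in air called 583 genes, diet after ozone 80 and the interaction 5. Limma-voom called 849, 19 and 2 genes, with 3 members in the ozone contrast of DHA-fed mice and 2 in the diet contrast in air (Fkbp5 and Hsd11b1). It turned Nr3c1 (0.0040) and Tsc22d3 (0.0077) for ozone on the control diet, and Errfi1 for diet after ozone (-0.0039) and over both exposures (-0.039). Fitting the compared groups alone called 359 genes for diet in air and 2 after ozone.

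Without control-diet air libraries 1 to 3, ozone on the control diet called 1803 genes, diet in air 0 genes and 0 members, and diet over both exposures 10 genes and 0 members, while ozone over both diets called 2 members. That setting turned the uncalled values of Nr3c1 (0.057), Hsd11b1 (-0.065), Sgk1 (-0.086) and Cdkn1a (-0.12) for ozone on the control diet, the interactions of Hsd11b1 (0.16), Tsc22d3 (0.11) and Dusp1 (0.15), and Sgk1 for diet over both exposures (-0.011). Without DHA-diet ozone libraries 1 and 2, 2 members were called in the ozone contrast of DHA-fed mice, 2 in the diet contrast in air with 747 genes, and 2 for ozone over both diets. Errfi1 turned for diet after ozone (-0.035) and over both exposures (-0.051), and Cdkn1a over both exposures (-0.0081). Without DHA-diet air library 5 and DHA-diet ozone library 1, ozone on the DHA diet called 3 members, ozone over both diets 2 members and diet over both exposures 560 genes, and the Tsc22d3 interaction (0.010) and Klf9 for ozone over both diets (0.016) turned.

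Leaving out 1 library at a time, member calls ran from 3 to 5 for ozone on the DHA diet, 0 to 3 for diet in air, 2 to 3 for diet over both exposures and 3 to 6 for ozone over both diets, and stayed at 0 for the other comparisons. Gene calls ran from 2045 to 3049 and 3175 to 3973 for ozone on the control and DHA diets, 49 to 716 and 0 to 144 for diet in air and after ozone, 0 to 3 for the interaction, 578 to 1680 for diet over both exposures and 5324 to 5875 for ozone over both diets. Uncalled values that changed sign were, for ozone on the control diet, Nr3c1 (-0.032 to 0.024), Cdkn1a (-0.038 to 0.074) and Tsc22d3 (-0.15 to 0.057). For diet they were Errfi1 (-0.12 to 0.0013) and Dusp1 (-0.18 to 0.0066) in air, Nr3c1 (-0.037 to 0.0087) and Klf9 (-0.049 to 0.11) after ozone, and Cdkn1a (-0.017 to 0.11) and Errfi1 (-0.026 to 0.090) over both exposures. For the interaction they were Hsd11b1 (-0.085 to 0.045), Tsc22d3 (-0.21 to 0.031), Dusp1 (-0.16 to 0.050) and Fkbp5 (-0.30 to 0.050). Why these values moved was not tested.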

Other observations

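Some core clock genes were called in both contrasts on which Fkbp5, Zbtb16 and Nr3c1 are described. Of 16 tested, 4 were higher on the DHA diet in air: Bhlhe40 by 1.35-fold, Cry1 by 1.45-fold, Per2 by 1.49-fold and Nr1d2 by 1.32-fold (edgeR adjusted p = 0.00628, 0.0158, 0.0173 and 0.0261). Of all genes 1.15% were called in that comparison. The median change of the list was log2 0.31 in air, against 0.00 over all genes, and -0.05 after ozone. After ozone 0 of the list and 0% of all genes were called between diets. With ozone on the DHA diet 3 rose and 6 fell, among them Nfil3 at 1.93-fold, Per3 at 0.672-fold and Per2 at 0.665-fold. On the control diet 2 rose (Nfil3 and Bhlhe40) and 0 fell. Of all genes 23.7% were called with ozone on the DHA diet and 16.8% on the control diet. Collection time is not given, and a part of it in these values was not tested. For the difference of the ozone response between diets, 0 of the 16 and 0% of all genes were called.

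Of 14 immediate early genes ozone raised 5 on each diet and lowered 0, beside 16.8% of all genes called on the control diet and 23.7% on the DHA diet, and 9 were not called on each diet. Egr2 rose 1.58-fold on the control diet and 1.62-fold on the DHA diet (edgeR adjusted p = 0.0022 and 0.0007), and Egr1 1.47-fold and 1.58-fold. Of 12 p53 targets, ozone changed 0 on the control diet, beside 16.8% of all genes. On the DHA diet it changed 5, again beside 23.7% of all genes, and raised Phlda3 1.21-fold and Bax 1.15-fold while it lowered Trp53inp1, Plk2 and Sesn1 to 0.709-fold, 0.802-fold and 0.878-fold. Diet changed 0 of the immediate early genes and 0 of the p53 targets in either exposure, where 1.15% of all genes were called in air and 0% after ozone. Averaged over both exposures Mdm2 was lower on the DHA diet (0.924-fold, edgeR adjusted p = 0.0226), where 7.06% of all genes were called.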
